A study of Mus musculus with 6 samples.

Results

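Lipid droplet coats and lipases are the proteins that cover the triglyceride stores of a cell and those that take them apart. The genes described here are Plin2, Plin4, Plin5, Cidea, Cideb, Cidec, Pnpla2, Pnpla3, G0s2 and Mgll, chosen by name for what their proteins do. These 10 genes are read by 15 of the 45037 probe sets of the array that are no controls. Mgll has 4 probe sets, Plin5 and Pnpla2 have 2 each, and every other gene has 1. RNA came from whole liver of NZO mice, an inbred strain that becomes obese and diabetic on ordinary chow, and of C57BL/KS mice (BKS), a lean strain kept as the control. Both groups were male, 18 weeks old, fed standard chow and untreated, and no transgene or deletion is labelled in either. The design text calls the mice littermates, and the labels do not say outright that each array is a separate animal, so p-values measure the spread between these samples. There were 3 arrays per strain.

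A liver cell keeps surplus fatty acids as triglyceride in droplets. Perilipins sit on the droplet surface and hold lipases back or bring them in, and CIDE proteins move lipid between droplets or onto secreted lipoprotein. Adipose triglyceride lipase, encoded by Pnpla2, takes the first fatty acid off a triglyceride. The cofactor encoded by Abhd5 switches this lipase on and the small protein encoded by G0s2 inhibits it. The monoglyceride lipase encoded by Mgll removes the last fatty acid. In liver, several of these genes are targets of the fatty acid receptor PPAR alpha. In whole tissue, fewer cells of a type and less RNA per cell cannot be told apart.

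All levels below are log2 RMA values, and log2 fold changes are given as NZO minus BKS. Array medians lay between 5.08 and 5.22. One array, NZO replicate 1, had a narrower range than the rest. The 90th percentile of its probe sets was 8.62, where the remaining 5 arrays had 9.05 to 9.43, so its bright probe sets read low. In both strains the array whose title ends in number 1 (replicate 1) had the lowest spiked-in hybridization controls, 8.17 in NZO and 9.29 in BKS, where the remaining 4 arrays had 10.2 to 11.5. Values with the arrays titled number 1 as a block, or without them, are given for some of the genes whose call or size they change. The 3' probe set of beta-actin exceeded the 5' probe set, a measure of RNA or cDNA truncation, by 1.29, 1.34 and 1.39 on the NZO arrays and 1.72, 2.33 and 1.92 on the BKS arrays. That measure therefore moved with strain, and its part in the results below was not tested.

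The transcripts of the droplet coats and lipases mostly stayed within the spread between arrays, and none of the 15 probe sets passed the test. The largest log2 fold changes were 1.22 for Pnpla3, which rests on 1 array, and 0.97 for G0s2, whose 3 NZO values were all above the 3 BKS values. Of the 15 probe sets, 10 averaged at least 6 in a strain and 5 were dimmer in both. In the limma fit 0 of the 15 probe sets had an adjusted p below 0.05, where 0.424% of all probe sets did. At an unadjusted p below 0.05 there were 2 of 15, G0s2 and 1 probe set of Plin5, both higher in NZO, where 10.1% of all probe sets reached that level in either direction. With the arrays titled number 1 as a block, again 0 of 15 passed, where 2.97% of all probe sets did, and without those arrays 0 of 15 passed, where 2.65% did. All 3 NZO values lay above all 3 BKS values in 3 of 15 probe sets (G0s2, Plin4 and 1 of Plin5), where 6.83% of all probe sets did so. All 3 NZO values lay below all 3 BKS values in 0 of 15, where 8.49% of all probe sets did so. Both counts depended on the normalization, with 4 higher after cyclic loess and 1 lower after median centring. For those normalizations the share over all probe sets is not given here. The median log2 fold change of the 15 probe sets was 0.02, ranging from -0.41 to 1.22, and 8 were above 0 and 7 below. Over all probe sets the median was 0.00.

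**Figure D1:**
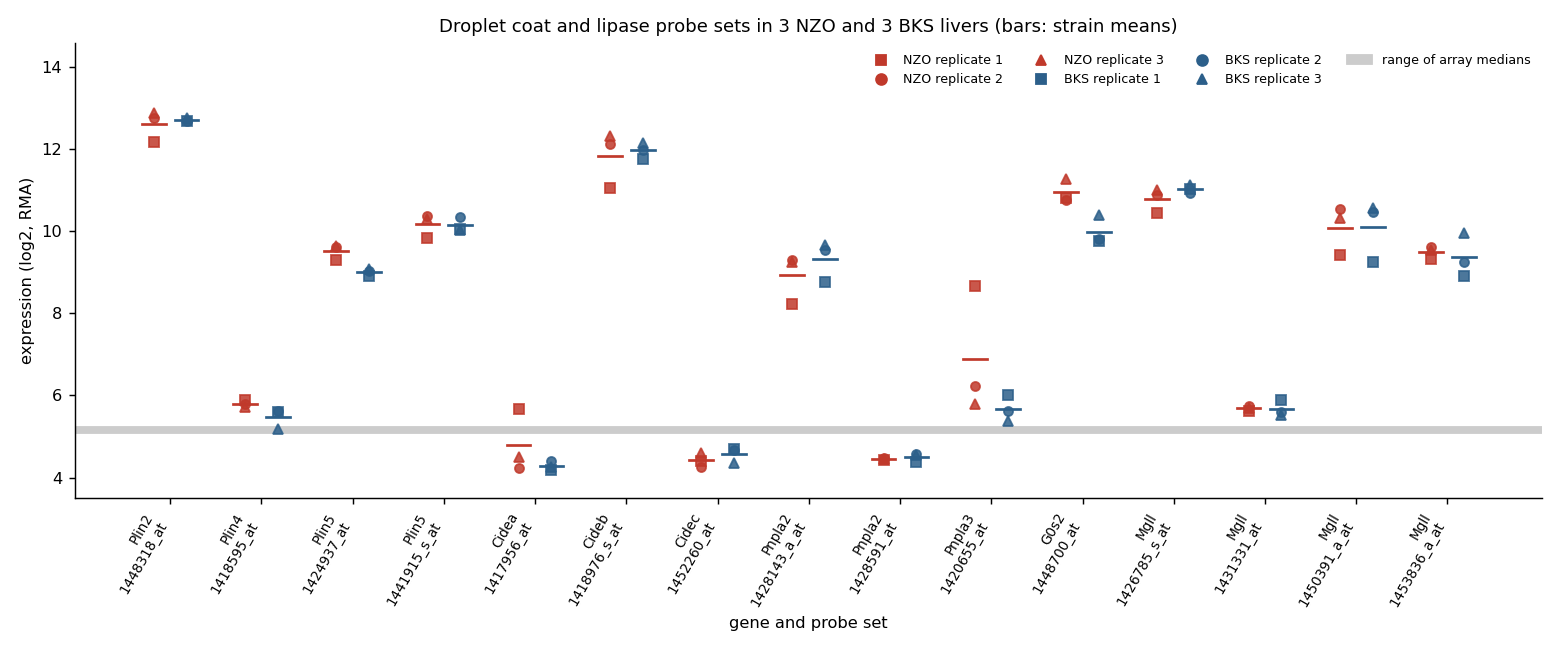
Log2 RMA values (vertical axis) of the 15 probe sets, side by side along the horizontal axis, each with NZO left and BKS right. Squares, circles and triangles are replicates 1, 2 and 3, bars are strain means and the grey band spans the medians of the 6 arrays. NZO replicate 1 is the highest Pnpla3 value at 8.67 and the lowest Plin2 value at 12.19, while the 3 NZO values of G0s2 all lie above the 3 of BKS.

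The sequences before the start sites of 3 genes are printed because theirs are the probe sets in which the strains did not overlap. They are the 250 bases before a start site in RefSeq on build GRCm38.p6, the reference mouse genome, and not from either strain measured. The stretches of 9 of the 10 genes were searched. Capitals mark 3 motifs read on either strand: AGGTCA, the core that PPAR alpha and other nuclear receptors recognise, the CCAAT box, and TATAA, the core of the TATA box. No match overlapped another.
G0s2 (chr1:193273189-193273438, minus strand): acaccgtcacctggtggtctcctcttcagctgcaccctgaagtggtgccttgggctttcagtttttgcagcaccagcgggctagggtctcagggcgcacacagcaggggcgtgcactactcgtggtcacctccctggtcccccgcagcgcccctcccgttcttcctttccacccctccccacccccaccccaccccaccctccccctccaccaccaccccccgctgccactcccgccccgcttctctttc
Plin4 (chr17:56109783-56110032, minus strand): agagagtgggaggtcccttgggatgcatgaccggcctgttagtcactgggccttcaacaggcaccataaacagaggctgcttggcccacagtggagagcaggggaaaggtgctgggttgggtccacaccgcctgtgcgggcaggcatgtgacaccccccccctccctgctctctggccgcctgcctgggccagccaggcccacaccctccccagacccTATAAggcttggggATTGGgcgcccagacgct
Plin5 (chr17:56117549-56117798, minus strand): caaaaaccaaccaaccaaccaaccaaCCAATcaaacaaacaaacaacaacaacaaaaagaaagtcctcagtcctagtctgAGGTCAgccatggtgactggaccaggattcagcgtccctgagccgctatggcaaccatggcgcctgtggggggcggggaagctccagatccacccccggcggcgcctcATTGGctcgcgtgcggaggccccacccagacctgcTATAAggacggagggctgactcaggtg

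The Plin5 stretch holds AGGTCA at -170, CCAAT at -224 and, on the other strand, at -62, and TATAA at -27, counted from the start site. The Plin4 stretch holds TATAA at -32 and CCAAT on the other strand at -18. The G0s2 stretch, rich in C, holds none of the 3 motifs. Plin4 and Plin5 lie next to each other in the same orientation. The RefSeq gene spans of Plin4 and Plin5 begin further upstream, inside these stretches, and a second listed Plin5 start is not shown. The only other AGGTCA among the members' stretches was in Plin2, at -218 on the other strand. Of 32851 stretches of the same length before mouse gene starts, 14% held AGGTCA, 33.8% held CCAAT and 22.8% held TATAA. The direct repeat of AGGTCA with 1 base between its copies, the form bound by PPAR alpha with its partner, was in none of the members' stretches and in 0.0335% of all.

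Among the coats, Plin2 encodes the main perilipin of the fatty liver cell. Its level was 12.19, 12.77 and 12.88 on the NZO arrays and 12.68, 12.68 and 12.76 on the BKS arrays, near the top of the scale in both strains. NZO replicate 1 was the lowest of the 6, and the strains overlapped. The means were 12.61 ± 0.38 in NZO and 12.71 ± 0.05 in BKS (SD, n = 3 each), a log2 fold change of -0.10 with a 95% interval from -0.57 to 0.38 (limma adjusted p = 0.928). After quantile normalization was repeated over the 6 arrays, NZO replicate 1 had the highest value, 12.96, and the log2 fold change was 0.21. The repeated normalization shifted the values of the other arrays too. Without NZO replicate 1 the deposited values gave 0.12. The sign of the Plin2 difference thus differed between settings, it passed in none of these, and the cause was not tested.

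Plin5 encodes the perilipin of tissues that burn fat, which ties droplets to mitochondria. Probe set 1424937_at read 9.29, 9.62 and 9.65 on the NZO arrays and 8.92, 9.04 and 9.08 on the BKS arrays. All NZO values lay above all BKS values. The log2 fold change was 0.51 ± 0.15 (standard error), or 1.42-fold, and it did not pass (limma adjusted p = 0.292, and 0.0816 with the arrays titled number 1 as a block). It was 0.37 between the arrays titled number 1 and 0.58 among the other 4 arrays. The brighter probe set 1441915_s_at read 9.85, 10.38 and 10.30 on the NZO arrays and 10.06, 10.34 and 10.04 on the BKS arrays. There the strains overlapped, and the log2 fold change was 0.03 with a 95% interval from -0.41 to 0.47 (limma adjusted p = 0.981). It was 0.32 after repeated quantile normalization and 0.32 after cyclic loess, and after loess the NZO values lay above the BKS values here too. Which transcripts each Plin5 probe set reads was not examined.

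Plin4 encodes a large perilipin of small droplets, abundant in fat tissue. It was dim, at 5.89, 5.79 and 5.71 on the NZO arrays and 5.59, 5.63 and 5.19 on the BKS arrays. The NZO values lay above the BKS values, the nearest of them 5.71 and 5.63. The log2 fold change was 0.33 with a 95% interval from -0.05 to 0.71 (limma adjusted p = 0.580). The strains overlapped after repeated quantile normalization, after cyclic loess and after centring the arrays on their medians.

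For the CIDE genes no difference between strains was detectable with these arrays. Cideb, the member that hepatocytes use to load lipid onto VLDL particles, read 11.05, 12.13 and 12.33 on the NZO arrays and 11.77, 11.98 and 12.17 on the BKS arrays. NZO replicate 1 was again the lowest, and the other NZO arrays lay among or just above the BKS values. The log2 fold change was -0.14 with a 95% interval from -0.93 to 0.66 (limma adjusted p = 0.941), and 0.16 without the arrays titled number 1.

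Cidea and Cidec, which fuse droplets in fat cells and are switched on in fatty livers of other obese mouse models, stayed below the array medians in nearly every sample. Cidea read 5.67, 4.23 and 4.50 on the NZO arrays and 4.18, 4.40 and 4.26 on the BKS arrays. A single array, NZO replicate 1, was above the array medians, and it stood apart at 5.65 after repeated quantile normalization too. The log2 fold change of 0.53 (limma adjusted p = 0.715) was 0.09 without NZO replicate 1. Cidec read 4.41, 4.25 and 4.59 on the NZO arrays and 4.68, 4.67 and 4.36 on the BKS arrays. The strains overlapped, and its log2 fold change was -0.15 with a 95% interval from -0.53 to 0.22 (limma adjusted p = 0.828).

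**Figure D2:**
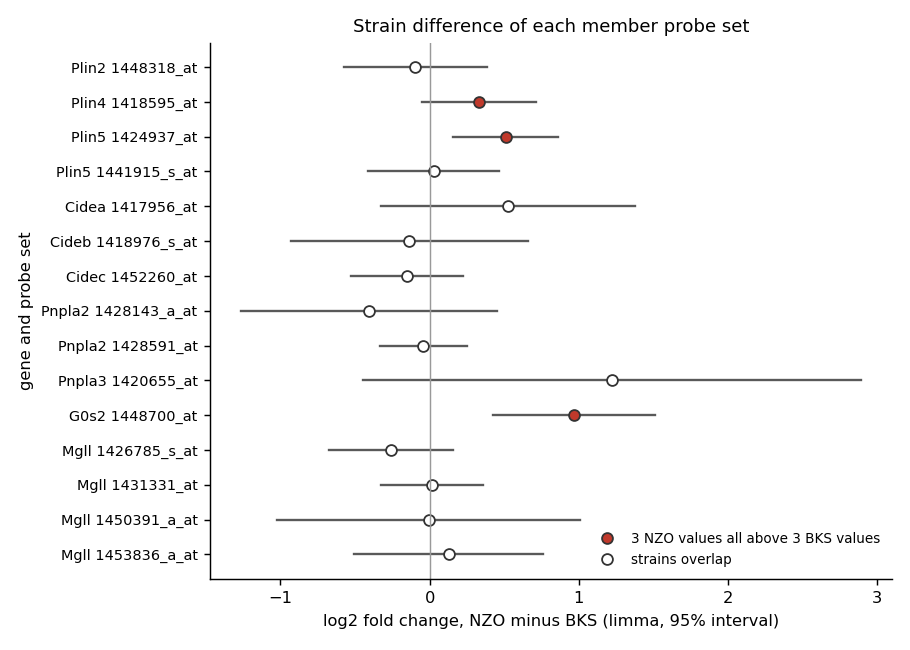
Log2 fold change, NZO minus BKS (horizontal axis), of the 15 probe sets with 95% intervals from limma. Filled red points mark the 3 probe sets whose NZO values all lie above the BKS values, and of these the intervals of G0s2 (0.42 to 1.51) and Plin5 1424937_at (0.16 to 0.86) do not reach 0.

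Of the lipases, Pnpla2 encodes the adipose triglyceride lipase. Probe set 1428143_a_at read 8.22, 9.29 and 9.27 on the NZO arrays and 8.78, 9.56 and 9.66 on the BKS arrays. In each strain the array titled number 1 was the lowest, and the strains overlapped through BKS replicate 1. The means were 8.93 ± 0.61 in NZO and 9.33 ± 0.48 in BKS (SD, n = 3 each), a log2 fold change of -0.41 with a 95% interval from -1.26 to 0.45 (limma adjusted p = 0.792, and 0.146 with the arrays titled number 1 as a block). The difference was -0.56 between the arrays titled number 1 and -0.33 among the other 4. Leaving out 1 array moved it to -0.05 without NZO replicate 1 and to -0.68 without BKS replicate 1. Probe set 1428591_at lay between 4.37 and 4.57 on all 6 arrays, under the array medians, with a log2 fold change of -0.04 (limma adjusted p = 0.952).

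Pnpla3 encodes a droplet protein related to Pnpla2, whose transcript is raised by insulin and sugar in mouse liver. It read 8.67, 6.22 and 5.80 on the NZO arrays and 6.01, 5.63 and 5.38 on the BKS arrays. NZO replicate 1 lay 2.45 above the next NZO array, and NZO replicate 3 lay below BKS replicate 1. The means were 6.90 ± 1.55 in NZO and 5.67 ± 0.31 in BKS (SD, n = 3 each), a log2 fold change of 1.22 with a 95% interval from -0.45 to 2.89 (limma adjusted p = 0.648). Without NZO replicate 1 the log2 fold change was 0.34, and without both arrays titled number 1 it was 0.50 (limma adjusted p = 0.254). NZO replicate 1 also stood apart at 9.25 after repeated quantile normalization and at 8.78 after cyclic loess. The same array was high in some markers of other cell types and not in others. The T cell marker Cd8a (1440164_x_at) read 9.55 on NZO replicate 1 and 6.41 to 6.70 on the other 5 arrays. The epithelial marker Epcam (1447899_x_at) read 9.78 there and 7.07 to 7.73 on the others. Whether these probe sets read only the named transcripts was not examined. In the same lists, Cd3e (7.19) and Cd79a (5.83) were also highest on that array, by less. Cd3d, Nkg7, Ms4a1, Ncr1, Krt19, Krt7 and Sox9 lay there within the range of the other 5 arrays. Whether the high Cd8a and Epcam values and those of Pnpla3 and Cidea on NZO replicate 1 have a common source was not tested.

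Mgll encodes monoglyceride lipase, which also breaks down the endocannabinoid 2-arachidonoylglycerol. In the deposited values the strains overlapped in all 4 of its probe sets. The brightest, 1426785_s_at, read 10.46, 10.88 and 11.00 on the NZO arrays and 11.04, 10.94 and 11.14 on the BKS arrays, a log2 fold change of -0.26 with a 95% interval from -0.68 to 0.16 (limma adjusted p = 0.712). After median centring its NZO values all lay below its BKS values, the nearest at 10.93 in NZO and 10.99 in BKS. Probe set 1450391_a_at read 9.42, 10.54 and 10.32 on the NZO arrays and 9.26, 10.47 and 10.56 on the BKS arrays. It separated the arrays titled number 1 from the rest and not the strains, with a log2 fold change of -0.01 and a 95% interval from -1.02 to 1.01. The log2 fold change was 0.13 in 1453836_a_at and 0.02 in the dim 1431331_at.

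G0s2, whose protein inhibits the lipase encoded by Pnpla2, was the member with the smallest p. It read 10.81, 10.78 and 11.28 on the NZO arrays and 9.76, 9.81 and 10.40 on the BKS arrays. The lowest NZO array lay 0.38 above the highest BKS array, and both strains had a like spread. The means were 10.96 ± 0.29 in NZO and 9.99 ± 0.35 in BKS (SD, n = 3 each), a log2 fold change of 0.97 ± 0.23 (standard error), or 1.96-fold. Its unadjusted p was 0.00409, and after adjustment over all 45037 probe sets it did not pass (limma adjusted p = 0.201). The difference was 1.05 between the arrays titled number 1 and 0.93 among the other 4, and with those arrays as a block the adjusted p was 0.0558. The strains stayed apart after repeated quantile normalization, cyclic loess and median centring, and the log2 fold change lay between 0.80 and 1.27 over the settings run.

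**Figure D3:**
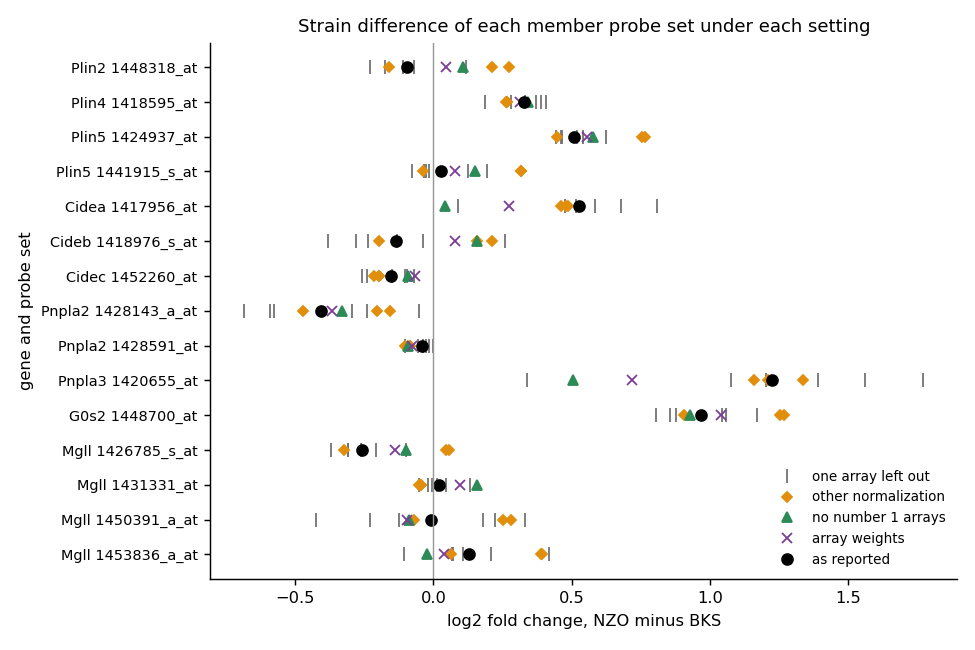
Log2 fold change, NZO minus BKS (horizontal axis), of the member probe sets under the processing settings that change it. Black circles are the reported values, diamonds other normalizations, crosses array weights, triangles the 4 arrays without those titled number 1, and ticks fits without 1 array. G0s2 stays between 0.80 and 1.27, Pnpla3 spans 0.34 to 1.77, and the values of Plin2 and Cideb fall on both sides of 0.

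Differences between 2 probe sets of the same array leave out whatever shifts both alike. The 3 pairs below were chosen after their values were seen, so the tests only describe them, and with 3 against 3 arrays the smallest two-sided exact permutation p is 0.1. The size of such a difference in 1 array depends on the probes and is no ratio of transcripts. G0s2 minus Pnpla2 (1428143_a_at), inhibitor minus lipase, was 2.59, 1.48 and 2.02 on the NZO arrays and 0.98, 0.25 and 0.73 on the BKS arrays. The strains did not overlap, and the means of 2.03 ± 0.55 in NZO and 0.66 ± 0.37 in BKS (SD, n = 3 each) differed by 1.37 (exact permutation p = 0.1, and 0.1 adjusted over the 3 pairs).

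G0s2 minus Abhd5 (1417566_at), inhibitor minus activator, was 2.17, 1.69 and 2.60 on the NZO arrays and 0.35, 0.44 and 0.75 on the BKS arrays. The strains again did not overlap, with means of 2.15 ± 0.46 in NZO and 0.51 ± 0.21 in BKS (SD, n = 3 each) and a difference of 1.64 (exact permutation p = 0.1). Plin5 1424937_at minus 1441915_s_at was -0.55, -0.76 and -0.65 on the NZO arrays and -1.14, -1.31 and -0.96 on the BKS arrays, a difference of 0.48 (exact permutation p = 0.1). The strains did not overlap. This difference restates the log2 fold changes of the Plin5 probe sets, 0.51 and 0.03, which were seen before the pair was chosen.

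**Figure D4:**
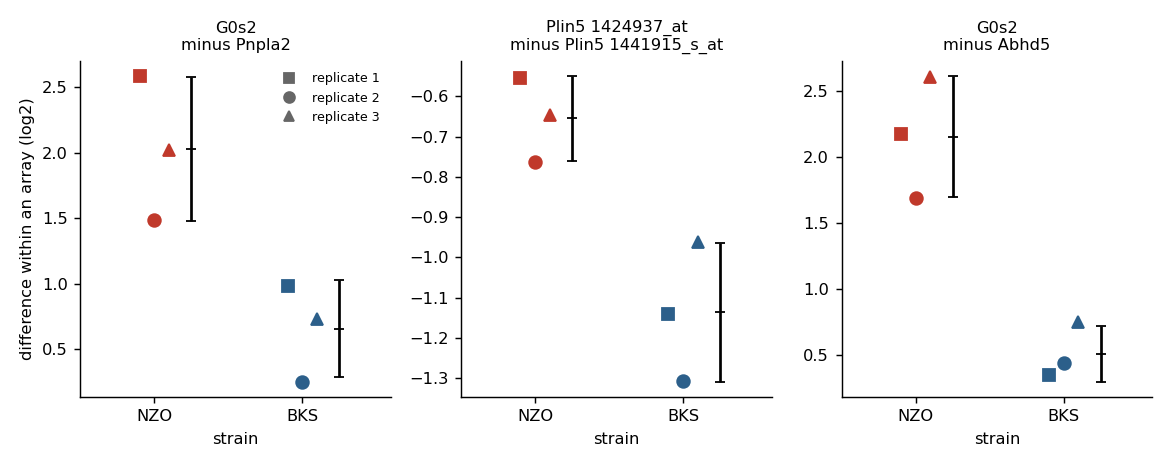
Difference in log2 value between 2 probe sets of the same array (vertical axis), NZO left and BKS right, 1 point per array with the mean and SD (n = 3 per strain). In each of the 3 panels all NZO points lie above all BKS points, and the strain means differ by 1.37 for G0s2 minus Pnpla2, 0.48 within Plin5 and 1.64 for G0s2 minus Abhd5.

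Other genes of the droplet and of lipolysis were read with 1 probe set per gene, the one with the highest mean. Of 14 other droplet coat and assembly genes measured, 0 passed in either direction, with a median log2 fold change of -0.19 (-0.03 over all 18193 genes). Over all probe sets with a strain mean of at least 6 the median was -0.13. With the arrays titled number 1 as a block, 1 was higher and 2 were lower of 14, where 2.97% of all probe sets passed in either direction. Without those arrays 1 of 14, Fitm1, was higher. Of all 45037 probe sets 2.65% then passed in either direction, and 623 were higher. Bscl2, which encodes seipin at the site where droplets form, read 9.89, 10.76 and 10.81 on the NZO arrays and 11.44, 11.55 and 11.50 on the BKS arrays. All NZO values lay below all BKS values, with a log2 fold change of -1.01 (limma adjusted p = 0.225, and 0.0373 with the block). That change was -1.54 between the arrays titled number 1 and -0.74 among the others (limma adjusted p = 0.0562). A second Bscl2 probe set gave -0.09 (limma adjusted p = 0.954). Fitm1, which encodes a protein that helps droplets bud from the endoplasmic reticulum, read 9.51, 10.29 and 9.91 on the NZO arrays and 6.67, 8.38 and 8.92 on the BKS arrays. The strains did not overlap, and the log2 fold change of 1.91 (limma adjusted p = 0.296, and 0.0247 with the block) was 2.84 between the arrays titled number 1 and 1.45 among the others (limma adjusted p = 0.0291). The second gene lower with the block was Plin3, which encodes a perilipin of new droplets, at -0.67 (limma adjusted p = 0.644, and 0.0405 with the block). Without the arrays titled number 1, Plin3 was at -0.60 (limma adjusted p = 0.0998).

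Of 16 other neutral lipid lipases and cofactors measured, 0 passed in either direction, with or without the block, and their median log2 fold change was -0.06. Without the arrays titled number 1, 2.65% of all 45037 probe sets passed in either direction, and 623 were higher. Of the 16 genes, 2 were higher there. They were Lipa, which encodes the acid lipase of lysosomes, and Lipg, which encodes endothelial lipase. Lipa (1423140_at) read 10.04, 12.05 and 12.20 on the NZO arrays and 10.93, 10.97 and 10.75 on the BKS arrays. Its log2 fold change was 0.55 over all arrays (limma adjusted p = 0.821), -0.90 between the arrays titled number 1 and 1.27 among the other 4 (limma adjusted p = 0.0149). For Lipg it was 0.73 over all arrays (limma adjusted p = 0.480) and 0.98 among the other 4 (limma adjusted p = 0.0387). Abhd5, which encodes the activator of the adipose triglyceride lipase, read 8.63, 9.09 and 8.68 on the NZO arrays and 9.41, 9.37 and 9.64 on the BKS arrays in probe set 1417566_at. All NZO values lay below all BKS values, with a log2 fold change of -0.67 ± 0.17 (standard error; limma adjusted p = 0.227, and 0.0771 with the block). A second bright probe set of Abhd5, 1417565_at, gave -0.76, also without overlap (limma adjusted p = 0.231, and 0.0423 with the block). Lpl, which encodes the lipase of capillary walls, read 7.11, 8.49 and 8.10 on the NZO arrays and 10.06, 9.58 and 8.69 on the BKS arrays. Its log2 fold change was -1.54 (limma adjusted p = 0.300), made up of -2.95 between the arrays titled number 1 and -0.84 among the others.

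Of 15 genes that regulate the members, 0 passed in either direction, with a median log2 fold change of -0.22. The median was -0.03 over all 18193 genes and -0.13 over all probe sets with a strain mean of at least 6. With the block 2 of 15 were lower, Foxo1 and Insr. Of all 45037 probe sets 2.97% passed with the block in either direction, and 919 were lower. Foxo1, which encodes the insulin-restrained transcription factor that raises Pnpla2 and lowers G0s2 in mouse liver and fat, read 8.08, 8.85 and 7.92 on the NZO arrays and 9.55, 9.82 and 9.60 on the BKS arrays. The strains did not overlap, and the log2 fold change was -1.37 ± 0.25 (standard error, limma adjusted p = 0.108, and 0.0313 with the block). For Foxo1 without the arrays titled number 1 it was -1.32 (limma adjusted p = 0.0733). Of its other probe sets, 1416981_at gave -0.82 without overlap (limma adjusted p = 0.0711, 0.0230 with the block and 0.0462 without the arrays titled number 1). By contrast 1416982_at gave -0.12 with overlap (limma adjusted p = 0.885, and 0.769 with the block). The dim 1456529_at gave -0.11 (limma adjusted p = 0.945). Insr, which encodes the insulin receptor, gave -0.79 in 1434446_at (limma adjusted p = 0.346, and 0.0360 with the block). Without the arrays titled number 1 that probe set gave -0.70 (limma adjusted p = 0.0896). The other Insr probe sets were dim. Of these, 1421380_at gave -0.06 (limma adjusted p = 0.940, and 0.884 with the block) and 1450225_at gave 0.06 (limma adjusted p = 0.955, and 0.914 with the block). Fgf21, a hormone gene and PPAR alpha target, read 6.39, 6.15 and 6.14 on the NZO arrays and 5.55, 5.59 and 5.77 on the BKS arrays. The strains did not overlap, with a log2 fold change of 0.59 (limma adjusted p = 0.198).

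The profile of G0s2 over the 6 arrays, centred on its mean, was closest to those of Erdr1 (Euclidean distance 0.40), Plcl2 (0.45), Phf20 (0.48), Ttc5 (0.50) and Lyplal1 (0.52). The distance was taken over 6 arrays and 18193 genes, so near profiles are found for any gene. Lyplal1, which encodes a lysophospholipase-like protein, read 9.32, 9.71 and 9.79 on the NZO arrays and 8.57, 8.71 and 8.80 on the BKS arrays. Its log2 fold change was 0.91 (limma adjusted p = 0.105, 0.0172 with the arrays titled number 1 as a block and 0.0246 without them). That of Erdr1 was 1.07 (limma adjusted p = 0.103, 0.0308 with the block and 0.0450 without those arrays).

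Markers fitted the labelled tissue. The 9 hepatocyte markers measured averaged 12.98 to 13.93 on the NZO arrays and 13.75 to 13.85 on the BKS arrays, with NZO replicate 1 the lowest. Fat cells also use Plin4, Cidea, Cidec, G0s2 and Pnpla2. The 6 white adipocyte markers measured differed in level. Near the bottom of the scale were Adipoq at 3.80 to 3.94 on the NZO arrays and 3.86 to 4.12 on the BKS arrays, and the brown fat marker Ucp1 at 4.06 to 4.60 on the NZO arrays and 4.13 to 4.47 on the BKS arrays. Above the array medians on nearly every array were Lpl, Retn (at least 5.97 on each of the 6 arrays), Lipe (6.39 to 7.56 on the NZO arrays and 6.64 to 7.71 on the BKS arrays) and Fabp4 (5.87 to 7.43 on the NZO arrays and 5.08 to 6.83 on the BKS arrays). Fabp4 had a log2 fold change of 0.81 (limma adjusted p = 0.708), and of 1.70 without the arrays titled number 1 (limma adjusted p = 0.0381). The 6 markers averaged 5.85 to 6.29 on the NZO arrays and 6.06 to 6.53 on the BKS arrays, and 0 of 6 passed. The 8 striated muscle markers averaged 4.83 to 5.00 on the NZO arrays and 4.86 to 4.95 on the BKS arrays. The 7 sinusoidal endothelial markers averaged 6.82 to 7.57 on the NZO arrays and 6.48 to 6.76 on the BKS arrays, so their summed level was higher on each NZO array, while 0 of 7 passed. With the arrays titled number 1 as a block 1 of 7 passed, where 2.97% of all probe sets did. It was Pecam1, which was dim, at 4.82, 5.20 and 5.09 on the NZO arrays and 4.37, 4.35 and 4.27 on the BKS arrays. Its log2 fold change was 0.71 (limma adjusted p = 0.140, 0.0455 with the block and 0.0416 without the arrays titled number 1). In 3 of 7 all NZO values lay above all BKS values, where 6.83% of all probe sets did so. The part of the fat cell and endothelial markers in the differences of G0s2, Plin5 and Fitm1 was not tested.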

How the data were processed

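Liver RNA was measured on Affymetrix expression arrays, 3 of NZO and 3 of BKS. Per the submitters' processing notes, the authors used Affymetrix Expression Console and RMA, and the deposited numbers are log2 levels of probe sets. Versions are not given in the sources used here. The values carry no detection call, and the number of arrays limits the precision.

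Of the probe sets, 64 controls were left out, 34945 had exactly 1 symbol in the platform annotation, 932 had several and 9160 are unnamed here. The strain difference was fitted to all 6 arrays without covariates in limma 3.58.1 (lmFit, then eBayes at its defaults, R 4.3.3) and tested two-sided, adjusted by Benjamini-Hochberg over 45037 probe sets, with a threshold of 0.05. The fit was tested on simulated data. Figures were drawn with matplotlib 3.10.9. Replicate numbers follow accession order and pair nothing.

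Named are all members, and of each pathway list every gene past the test, and the 2 of smallest p in a list with none. The 5 genes nearest in profile to the member with the smallest p are named too. Plin3, Insr, Lipa, Lipg, some markers and the other second probe sets were named after their values were seen. Members and lists were chosen with earlier results of these data known, and the differences within an array were added after seeing the data. Alternatives changed the filter on dim probe sets, the choice of probe set, the normalization, how variance was modelled and weighted, and which arrays entered. Lists were also kept for stellate cells, Kupffer cells, T, B and NK cells and cholangiocytes.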

Additional observations from a re-analysis of the deposited data

How the results depend on the processing

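No paired analysis was possible because the replicate numbers follow accession order and the labels pair no animals across strains. No member probe set tested passed in either direction under any alternative run; 10 were tested under the floor of 6 and with 1 probe set per gene, and 15 under the others. In the settings that can change a log2 fold change, 135 of 165 recomputed values of member probe sets kept their sign and 30 had the opposite sign, all from probe sets that did not pass. The cause was not tested. Plin2, at -0.10, was 0.21 after repeated quantile normalization, 0.27 after cyclic loess, 0.045 with array weights, 0.11 without the arrays titled number 1, and -0.23 to 0.12 leaving out 1 array each. Cideb, at -0.14, was 0.16, 0.21, 0.077, 0.16 and -0.38 to 0.26 in the same order. Plin5 1441915_s_at, at 0.03, was 0.32 after quantile normalization and after loess, -0.036 after median centring and -0.076 to 0.19 leaving out 1 array each. For Mgll, 1426785_s_at was 0.046 after quantile normalization and 0.055 after loess, 1431331_at was -0.053, -0.045 and, after median centring, -0.044, with -0.053 to 0.13 leaving out 1 array each, 1450391_a_at was 0.25 and 0.28, with -0.43 to 0.33, and 1453836_a_at was -0.024 without the arrays titled number 1, with -0.11 to 0.42. Members whose strains did not overlap, 3 higher and 0 lower, numbered 4 and 0 after loess, 2 and 1 after median centring and 6 and 2 without the arrays titled number 1. Fewer arrays per strain separate more easily, so the last pair of counts cannot be set beside the others. Shares over all probe sets under these settings are not given here, so nothing is read from the counts.

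The counts over all probe sets moved more: 86 were higher and 105 lower in NZO, against 130 and 168 among probe sets with a strain mean of at least 6 (all-probe-set median -0.13 there), 320 and 284 after quantile normalization, 320 and 264 after loess, 180 and 193 with a trended robust variance, 319 and 510 with array weights, 417 and 919 with the block, and 623 and 569 without the arrays titled number 1. Leaving out 1 array gave 14 to 165 higher and 12 to 107 lower. Without NZO replicate 1 there were 165 and 107. The counts were 41 and 63 when NZO replicate 2 was left out, 18 and 17 when it was NZO replicate 3, 14 and 12 for BKS replicate 2, and 15 and 21 for BKS replicate 3. The G0s2 adjusted p ranged from 0.0558 with the block to 0.724 without BKS replicate 2. The differences of G0s2 minus Pnpla2 (1.10 to 1.65), G0s2 minus Abhd5 (1.41 to 1.87) and within Plin5 (0.40 to 0.57) kept their direction in every setting run.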

Other observations

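The second probe sets of other droplet and lipase genes were looked at after their values were seen. Hsd17b11, which encodes a dehydrogenase found on droplets, read 7.34, 9.86 and 9.72 on the NZO arrays and 6.31, 6.02 and 5.81 on the BKS arrays in probe set 1421011_at. The strains did not overlap, and the log2 fold change was 2.93 (limma adjusted p = 0.168, and 0.0326 with the arrays titled number 1 as a block). Without those arrays it was 3.88 (limma adjusted p = 0.000279). The brighter Hsd17b11 probe set 1434642_at gave -0.44 (limma adjusted p = 0.610).

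Lipa, the gene of lysosomal acid lipase, read 8.50, 10.25 and 9.66 on the NZO arrays and 7.95, 7.37 and 7.65 on the BKS arrays in probe set 1423141_at, a log2 fold change of 1.81 (limma adjusted p = 0.198, and 0.0529 with the block). Without the arrays titled number 1 it was 2.44 (limma adjusted p = 0.00479). Its other probe sets gave 0.55 and 0.26 over all arrays, and 1.27 (limma adjusted p = 0.0149) and 0.57 (limma adjusted p = 0.143) without the arrays titled number 1. Abhd6, which encodes a monoglyceride lipase, gave 0.57 (limma adjusted p = 0.588) in 1419103_a_at and -0.65 (limma adjusted p = 0.346) in 1419104_at.

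Kupffer cell and macrophage markers averaged 6.69 to 7.33 on the NZO arrays and 6.57 to 7.35 on the BKS arrays. Stellate cell and fibroblast markers averaged 6.92 to 7.45 on the NZO arrays and 6.98 to 7.61 on the BKS arrays. Markers of T, B and NK cells averaged 5.54 to 6.14 on the NZO arrays and 5.50 to 5.65 on the BKS arrays, and cholangiocyte markers 5.93 to 6.49 on the NZO arrays and 5.92 to 6.03 on the BKS arrays. NZO replicate 1 was the high end of the NZO range for T, B and NK cells and for cholangiocytes, and the low end for the Kupffer and stellate cell lists. On it Cd8a (1440164_x_at) read 9.55 and Epcam (1447899_x_at) 9.78, against 6.41 to 6.70 and 7.07 to 7.73 on the other 5 arrays. Cd3e and Cd79a were also highest there, while Cd3d, Nkg7, Ms4a1, Ncr1, Krt19, Krt7 and Sox9 lay within the range of the other arrays. The 4 brown adipocyte markers averaged 4.77 to 4.88 on the NZO arrays and 4.87 to 5.02 on the BKS arrays. In these lists 0 members passed the limma test at an adjusted p below 0.05 over all arrays. Without the arrays titled number 1, 2.65% of all 45037 probe sets passed in either direction, 623 higher and 569 lower. Higher there were 2 of 9 stellate cell and fibroblast markers, Rgs5 and Dcn, and 1 of 10 Kupffer cell and macrophage markers, Vsig4. Lower was 1 of 4 brown adipocyte markers, Cox7a1, which was dim in both strains. Over all arrays the log2 fold change was above 0 in 5 and below 0 in 4 of the 9 stellate cell and fibroblast markers.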
